A study of Mus musculus with 12 samples.

Results

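Accessible chromatin in LINE and SINE repeats was examined in brain macrophages of bone marrow (BM) chimeric mice. ATAC-seq, in which a transposase cuts and tags open DNA, had been performed on 12 libraries, and tags had been counted at peaks merged over the libraries of each treatment. Every merged peak whose HOMER annotation named a LINE or SINE repeat was taken, which gave 3165 of 60288 peaks (5.25%) in the untreated table and 2768 of 54953 peaks (5.04%) in the LPS table. The annotation is sequence based, so no measured tag entered the choice. Wild type (WT) C57BL/6J mice had been irradiated with 950 cGy and had received WT bone marrow that carries the CD45.1 allele of the leukocyte antigen Ptprc, whereas their own cells carry CD45.2. After 3.5 or 9 months (the labels give neither the interval nor the age of each mouse) LPS, an endotoxin from bacteria, was given at 2.5 mg/kg to some mice, whose brains were taken 12 h afterwards, and the others were left untreated. From each brain CD11b+ cells without Ly6C or Ly6G and with low CD45 were sorted into graft-derived CD45.1 cells and host CD45.2 microglia. Mice 4, 5 and 6 gave the groups CD45.1 untreated and CD45.2 untreated, with 3 libraries each, and mice 1, 2 and 3 gave the groups CD45.1 LPS and, likewise with 3 libraries, CD45.2 LPS. All 6 mice had been irradiated and transplanted, so no group represents the brain of an unmanipulated mouse.

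LINEs and SINEs are retrotransposons, elements that copied themselves through RNA and now make up a large part of the mouse genome. L1 is the LINE family that still has active members in the mouse. Its L1M subfamilies spread before rodents arose, whereas the L1Md, Lx, L1_Mus and L1_Mur names belong to the rodent lineage. L2, CR1 and RTE are old LINE families that no longer move, and MIR is an equally old SINE family. B1 (annotated as Alu), B2, B4 and ID are rodent SINEs made from small structural RNAs and mobilised by L1 proteins. Old copies have decayed and can hold binding sites of lineage factors, B2 copies are known to have spread binding sites of the insulator protein CTCF through rodent genomes, and young copies are usually kept closed by DNA methylation and by the HUSH and KRAB zinc finger repressors.

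Peak sequences are shown for the L1, MIR and B4 peaks that were called with the smallest adjusted p in either direction in untreated mice, for the B1 peak higher in CD45.1, for the B2 peak called after LPS, and for a B2 peak with a CTCF match. All are given 5′ to 3′ on the plus strand of the mm9 (NCBIM37) reference, and capitals mark matches to the motifs CEBP (TTGCNNAA), PU.1 (GAGGAAGT), RUNX (TGTGGTT), AP-1 (TGANTCA), IRF (GAAA, any 2 bases, GAAA) and CTCF (CCA, any 2 bases, AG, any 2 bases, GGC) on either strand. In the last sequence the capitals mark the CTCF match alone. The L1_Mus2 and MIRb peaks held no match to these motifs or to the NF-kappaB (GGANTTTCC), MEF2 (CTATTTTTA) and box B (GTTCNANTC) motifs.
L1MB4, chr7:20269167-20269342, higher in CD45.1: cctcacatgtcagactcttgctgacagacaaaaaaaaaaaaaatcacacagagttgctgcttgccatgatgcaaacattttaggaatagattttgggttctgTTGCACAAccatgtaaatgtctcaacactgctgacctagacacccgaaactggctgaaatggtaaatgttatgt
L1_Mus2, chr6:73660935-73661052, higher in CD45.2: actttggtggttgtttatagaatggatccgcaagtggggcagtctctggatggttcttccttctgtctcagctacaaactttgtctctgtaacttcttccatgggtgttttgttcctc
MIR, chr15:50672165-50672283, higher in CD45.1: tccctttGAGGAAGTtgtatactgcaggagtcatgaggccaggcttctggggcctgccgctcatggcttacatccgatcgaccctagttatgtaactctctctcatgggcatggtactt
MIRb, chr1:169484212-169484353, higher in CD45.2: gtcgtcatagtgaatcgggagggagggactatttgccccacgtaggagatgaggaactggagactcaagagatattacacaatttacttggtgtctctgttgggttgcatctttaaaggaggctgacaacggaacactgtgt
B4A, chr3:80916985-80917094, higher in CD45.1: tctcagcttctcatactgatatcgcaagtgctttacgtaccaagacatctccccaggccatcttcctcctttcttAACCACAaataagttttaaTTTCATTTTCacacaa
B4A, chr2:169828254-169828370, higher in CD45.2: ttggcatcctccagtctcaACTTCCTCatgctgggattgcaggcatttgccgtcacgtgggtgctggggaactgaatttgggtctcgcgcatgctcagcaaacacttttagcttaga
B1F, chr17:88928253-88928359, higher in CD45.1: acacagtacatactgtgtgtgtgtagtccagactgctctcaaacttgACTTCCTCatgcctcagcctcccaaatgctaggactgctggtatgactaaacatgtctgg
B2_Mm2, chr12:72152246-72152416, higher in CD45.1 after LPS: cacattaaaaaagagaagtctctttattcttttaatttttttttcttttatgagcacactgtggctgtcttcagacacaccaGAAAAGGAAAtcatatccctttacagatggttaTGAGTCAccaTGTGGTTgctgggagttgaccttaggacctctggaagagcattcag
B2_Mm2, chr12:105980611-105980767, not called: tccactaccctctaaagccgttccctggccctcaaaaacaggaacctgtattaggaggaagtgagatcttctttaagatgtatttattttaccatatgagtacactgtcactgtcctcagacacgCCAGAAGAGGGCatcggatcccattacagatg

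L1 was the largest family, with 1253 peaks in the untreated and 1187 in the LPS table. B2 followed with 635 and 436 peaks, then MIR with 373 and 340, B4 with 334 and 295, L2 with 259 and 229, and B1 with 176 and 168. The smaller families were CR1 (65 and 47 peaks), ID (40 and 38), RTE (19 and 15), a group annotated only as SINE (8 and 9) and tRNA-like SINEs (3 and 4). By repeat name, B3 (317 untreated peaks) and B3A (173), both of the B2 family, were the most frequent, followed by Lx8 (159), an L1 of rodents, MIR (133) and B2_Mm2 (129). None of the peaks lay in a promoter or exon by annotation. The detailed annotation used for the choice names a single feature per peak. Repeats inside promoters or exons may thus have been left out by the choice itself. Of the untreated ones 1717 were intronic and 1448 intergenic, and the median distance to a start site was 19822 bp. B1 peaks were the most often intronic of the 6 larger families (67.6%), against 50.9% of L1 peaks. A typical repeat peak had a median of 19.5 tags per library and a width of 123 bp, against 27.7 tags and 132 bp over all untreated peaks, which include promoters. LTR repeat peaks (20.2 tags and 123 bp) and intronic or intergenic peaks outside repeats (23.1 tags and 128 bp) came close to these values. After LPS the repeat peaks had a median of 10.4 tags, so single peaks carry more counting error there. The median GC content of untreated repeat peaks was 47.0%, below the 52.0% of all peaks, with 49.0% for LTR peaks and 49.5% for intronic or intergenic peaks outside repeats.

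Libraries held 8392877.5 to 9107770 tags in untreated mice and 2966364 to 6556594.5 after LPS. Untreated mouse 4 had a CD45.2 library that stood apart, with 18.4% of its tags in merged peaks against 29.7 to 39.0% in the other untreated libraries. Over the repeat peaks, libraries of the same population correlated at r = 0.821 to 0.926 (untreated, 3113 peaks) and 0.752 to 0.857 (LPS, 2389 peaks), and libraries of different populations at 0.333 to 0.553 and 0.460 to 0.557. These correlations run across peaks, which are not independent replicates. Promoter peaks checked the sorted cells. Summed normalized tags of 8 of 10 brain macrophage genes with a promoter peak were 1026 to 1145 in CD45.1 and 1056 to 1228 in CD45.2 untreated libraries, although Csf1r and Aif1 had no promoter peak. Graft-derived macrophage genes (6 of 8) summed to 330 to 431 in CD45.1 and 143 to 152 in CD45.2, and host microglia genes (5 of 7) to 169 to 268 and 312 to 347. The graft-derived genes Ccr2 and Cd38 and the host microglia genes Sall1 and Slc2a5 had no promoter peak. No promoter peak was found for the 4 endothelial, 4 T cell and 4 neutrophil genes. Neuronal genes (1 of 5, Tubb3) stayed at or below 15.8, oligodendrocyte genes (2 of 6) reached 65.9 to 82.6 and 48.4 to 66.4, astrocyte genes (1 of 4) 10.3 to 16.4 and 24.4 to 53.2, and B cell genes (1 of 4) 8.86 to 12.8 and 16.2 to 22.1, and the part of such cells in the results was not tested. After LPS the brain macrophage genes (7 of 10) summed to 311 to 399 in CD45.1 and 321 to 389 in CD45.2. Graft-derived genes (7 of 8) gave 118 to 165 and 64.4 to 81.4. Host microglia genes (5 of 7) gave 82.6 to 112 and 105 to 132, so their ranges overlapped. The neutrophil gene S100a8 had a promoter peak after LPS, with 5.66 to 19.3 and 8.76 to 28.5 tags.

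The comparison of CD45.1 with CD45.2 cells of untreated mice asked whether graft and host macrophages open different repeats. Of 3113 repeat peaks tested, 244 (7.84%) were called higher in CD45.1 and 103 (3.31%) higher in CD45.2, where 3.78% and 2.65% of all 59170 peaks tested were called. A call required a DESeq2 adjusted p under 0.01 and a more than 4-fold difference. This fit did not use that both populations came from the same brains. With the mouse as a block 186 (5.97%) and 69 (2.22%) repeat peaks were called, where 3.02% and 1.98% of all peaks were. The excess on the CD45.1 side came mostly with L1. Of 1234 L1 peaks, 159 (12.9%) were higher in CD45.1 and 55 (4.46%) higher in CD45.2, and with the block 126 (10.2%) and 37 (3.00%). B2 peaks stood at the other end, with 10 and 9 of 634 called (1.58% and 1.42%). In all 347 calls the 3 libraries of the higher population lay above the 3 of the lower one. The same held for all 2237 and 1567 calls over all peaks, so lack of overlap is no separate support for a call. Of all repeat peaks tested 44.9% did not overlap between populations, against 35.5% of all peaks, 43.9% of LTR peaks and 41.0% of intronic or intergenic peaks outside repeats. In bulk cells a peak open in fewer cells and a peak less open in every cell cannot be told apart.

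The L1 calls were unevenly spread over the age of the elements. L1M peaks, the old class, were called higher in CD45.1 in 97 of 619 cases (15.7%) and higher in CD45.2 in 18 (2.91%), with a median log2 fold change (CD45.1 over CD45.2) of 0.31. The rodent L1 peaks gave 59 (10.2%) and 37 (6.38%) of 580, with a median of -0.05. With the mouse as a block and size factors set within bins of GC content, L1M peaks gave 60 (9.69%) and 16 (2.58%) calls with a median of 0.17, and rodent L1 peaks 40 (6.90%) and 24 (4.14%) with a median of -0.08. For calls higher in CD45.1 the other families with over 100 peaks fell between L1 and B2. MIR had 23 and 9 calls of 369 (6.23% and 2.44%), B4 18 and 12 of 327 (5.50% and 3.67%), L2 12 and 13 of 248 (4.84% and 5.24%), B1 11 and 3 of 166 (6.63% and 1.81%) and CR1 6 and 2 of 65. RTE, a family of 19 peaks with the single name L4, had 3 calls, each higher in CD45.1. LTR peaks, which derive from endogenous retroviruses, gave 121 and 134 of 2861 (4.23% and 4.68%), and intronic or intergenic peaks outside repeats 1636 and 1037 of 33255 (4.92% and 3.12%).

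**Figure D1:**
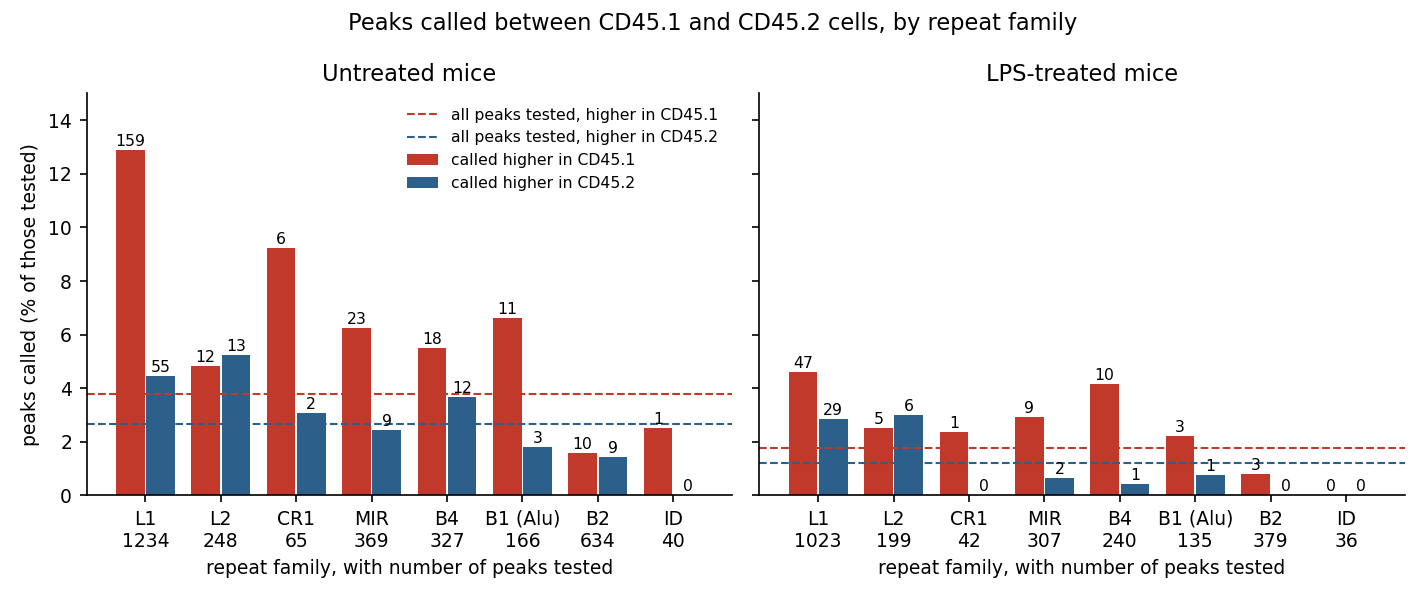
Percent of tested peaks called higher in CD45.1 (red) or in CD45.2 (blue) in each repeat family, for untreated mice (left) and LPS-treated mice (right), with the number of calls above each bar and dashed lines at the percent over all peaks. In untreated mice L1 reaches 12.9% for CD45.1 while B2 stays at 1.58%, below the dashed line at 3.78%.

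The size of the calls was similar on both sides. The median log2 fold change was 3.24 for peaks called higher in CD45.1 and -3.13 for those called higher in CD45.2, and in 7 and 6 of them the lower population had no tag in any library. Base composition moved with the result, since peaks called higher in CD45.1 had a median GC content of 42.8%, those higher in CD45.2 48.0% and those not called 47.5%. Outside repeats the distal peaks called higher in CD45.1 had 43.0%. With the mouse as a block and size factors set within GC bins the counts were 149 and 73, and L1 kept 100 (8.10%) and 40 (3.24%) calls where all peaks gave 2.53% and 1.91%. Without the CD45.2 library of mouse 4 the counts were 215 and 80 for all repeats, 140 and 42 for L1, and 8 and 6 for B2. Without the CD45.2 library of mouse 5 only 147 calls were higher in CD45.1. Calls higher in CD45.2 numbered 61 and 64 without the CD45.1 library of mouse 4 or 6, and 59 without the CD45.2 library of mouse 5 or 6.

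The L1 call with the smallest adjusted p was the L1MB4 peak shown above, which lies between genes 2445 bp upstream of Apoc4-apoc2, in the cluster of lipoprotein genes that also holds Apoe. Its normalized tags (divided by the size factor of the library) were 106, 112 and 126 in CD45.1 and 11.5, 6.19 and 6.09 in CD45.2, a log2 fold change of 3.95 (SE 0.369, DESeq2 adjusted p = 3.76e-23). All CD45.1 libraries were far above all CD45.2 libraries, and the call held in all 14 alternative analyses. An L1M2 peak in intron 3 of Mtss1 (chr15:58882741-58882861), a gene for an actin and membrane curvature regulator, had 55.0, 68.9 and 98.6 tags in CD45.1 and 2.46, 4.26 and 4.06 in CD45.2 (log2 4.16, SE 0.494, adjusted p = 2.06e-14). Among rodent L1 elements, an Lx8 peak in intron 13 of Cyfip2 (chr11:46079037-46079141), which encodes a subunit of the actin-regulating WAVE complex, had 67.6, 63.9 and 71.9 tags against 3.28, 0 and 2.84 (log2 5.13, SE 0.650, adjusted p = 1.25e-12). A second Lx8 peak (chr14:26600214-26600347), 11938 bp upstream of Zcchc24, had a log2 fold change of 2.81 (SE 0.344). In these 4 peaks the lowest CD45.1 library exceeded the highest CD45.2 library.

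On the host side the L1 call with the smallest adjusted p was the L1_Mus2 peak shown above, between genes and 239978 bp upstream of 1700065L07Rik. It held no tag in any CD45.1 library and 99.1, 96.0 and 73.0 normalized tags in CD45.2, so it was at least 90.1-fold higher in CD45.2 at a floor of 3 tags over the CD45.1 group (adjusted p = 3.07e-11). This is a young element, and the way reads of near-identical copies were assigned is not given in the sources used here, so its level is uncertain. An L1MC3 peak in intron 1 of Adarb1 (chr10:76853993-76854116), the gene of an RNA-editing deaminase, had 1.87, 4.56 and 4.36 tags in CD45.1 and 39.3, 47.2 and 53.6 in CD45.2 (log2 -3.72, SE 0.542, adjusted p = 1.09e-09). An Lx7 peak in intron 1 of Plcl1 (chr1:55531961-55532108), a phospholipase C related gene, had a log2 fold change of -2.71 (SE 0.397). Each of the 3 was called in all alternative analyses.

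The old L2 and MIR families held calls of similar size in either direction. An L2 peak between genes, 49034 bp downstream of the start of P4ha2, a collagen prolyl hydroxylase gene (chr11:53963337-53963584), had 116, 138 and 156 tags in CD45.1 and 31.1, 35.6 and 25.6 in CD45.2 (log2 2.15, SE 0.244, adjusted p = 1.25e-15). An L2a peak 26026 bp upstream of Fam19a1, which encodes a secreted chemokine-like protein (chr6:96037056-96037189), had 0, 0 and 0.545 tags in CD45.1 and 71.3, 45.7 and 56.0 in CD45.2 (adjusted p = 1.42e-09). The MIR peak with a PU.1 match lay in intron 2 of Trps1, a gene for a GATA-type zinc finger repressor, and had 91.9, 64.8 and 86.6 tags in CD45.1 and 10.7, 7.35 and 22.3 in CD45.2 (log2 2.55, SE 0.355, adjusted p = 1.60e-10). The MIRb peak shown lay 44211 bp upstream of Rxrg, which encodes a retinoid X receptor, and had 3.73, 5.02 and 12.0 tags in CD45.1 and 78.7, 62.7 and 75.1 in CD45.2 (log2 -3.38, SE 0.414, adjusted p = 1.65e-13). None of the 4 peaks overlapped between populations.

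The rodent SINE calls rested on fewer tags. The B4A peak in intron 1 of the growth factor gene Pdgfc had 27.1, 47.0 and 50.1 tags in CD45.1 and 1.64, 1.94 and 3.65 in CD45.2 (log2 4.22, SE 0.661, adjusted p = 1.75e-08). The other B4A peak shown, annotated as intergenic by HOMER but inside the zinc finger gene Tshz2 in the mm9 annotation, ran the other way with 3.73, 2.74 and 1.63 tags against 31.1, 39.1 and 41.0 (log2 -3.68, SE 0.60, adjusted p = 7.51e-08). The B1F peak, 1158 bp upstream of the phosphatase regulator gene Ppp1r21, averaged 34.0 ± 10.2 tags against 3.74 ± 2.23 (SD, n = 3), without overlap of the libraries (log2 3.07, SE 0.564, adjusted p = 2.52e-06). A PB1 peak in intron 16 of Naa35, a subunit gene of an N-terminal acetyltransferase (chr13:59726426-59726538), was higher in CD45.2 (log2 -3.67, SE 0.643). Of the few B2 calls, a B3A peak 11475 bp upstream of the ribosomal protein gene Rps14 was higher in CD45.1 (log2 2.53, SE 0.409). A B3A peak in intron 3 of Opcml, a neuronal adhesion gene (chr9:28556653-28556751), had no tag in CD45.1 and 21.3, 14.3 and 19.9 in CD45.2, at least 18.4-fold higher.

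After LPS, the same comparison gave 81 calls higher in CD45.1 (3.39%) and 39 higher in CD45.2 (1.63%) among 2389 repeat peaks tested, where 1.78% and 1.19% of all 49180 peaks tested were called. L1 again held most of them, with 47 (4.59%) and 29 (2.83%) of 1023. The old L1M names gave 26 (5.15%) and 9 (1.78%) of 505 and the rodent names 21 (4.29%) and 20 (4.08%) of 490. MIR gave 9 and 2 of 307, B4 10 and 1 of 240, L2 5 and 6 of 199 and B1 3 and 1 of 135. In B2 DESeq2 called 3 of 379 peaks higher in CD45.1 and 0 higher in CD45.2, with 28 peaks at an unadjusted p under 0.05, and edgeR called 6 and 2. Since both populations came from the same brains, the fit with the mouse as a block is given beside these counts, and it called 50 and 18 repeat peaks. With GC-bin size factors added, the counts were 28 and 24, L1 had 16 and 18, the L1M names 8 and 8 (median log2 0.08, against 0.21 before) and the rodent names 8 and 10, and the lean towards CD45.1 was no longer seen. Scaled to total tags the median of all peaks moved to 0.14 on the log2 scale, and 86 and 29 repeat peaks were called.

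The LPS counts also depended on single libraries. Calls higher in CD45.1 numbered 53, 42 and 40 without the CD45.1 library of mouse 1, 2 or 3, and 26 and 23 without the CD45.2 library of mouse 2 or 3. Calls higher in CD45.2 numbered 10 to 22 when any single library was left out, with the lowest count without the CD45.1 library of mouse 1. The call with the smallest adjusted p was again the Lx8 peak in Cyfip2, with 50.5, 41.1 and 69.8 tags in CD45.1 and 1.75, 0 and 2.08 in CD45.2 (log2 5.22, SE 0.735, adjusted p = 1.20e-09). An L1ME1 peak in intron 53 of the calcium channel gene Itpr1 (chr6:108453748-108453936) had 33.2, 52.8 and 37.7 tags against 3.50, 1.74 and 5.34 (log2 3.45, SE 0.548, adjusted p = 1.50e-07). These L1 peaks did not overlap between populations.

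An RSINE1 peak of the B4 family in intron 1 of Clec12a, an inhibitory myeloid lectin receptor gene (chr6:129301233-129301409), had 36.8, 35.9 and 36.3 tags in CD45.1 and 0.876, 0.872 and 2.08 in CD45.2 after LPS (log2 4.68, SE 0.757, adjusted p = 2.68e-07). The B2_Mm2 peak shown, in intron 11 of the chromatin regulator gene Arid4a, had 36.4, 32.6 and 32.6 tags against 8.76, 3.05 and 5.05 (log2 2.72, SE 0.508, adjusted p = 1.42e-05) and was called in 13 of 14 alternative analyses. Further calls higher in CD45.1 were an L1MB3 peak 10668 bp upstream of the efflux pump gene Abcc1 (log2 2.98), a PB1D10 peak near the Wnt receptor gene Fzd7 (4.53), a MIRc peak near Ank, a pyrophosphate transporter gene (3.32), and an L2 peak in intron 8 of Fggy. In the L2 peak the CD45.2 libraries held so few tags that its ratio of 40.0 has a 95% counting interval of 13.3 to 197. Higher in CD45.2 were an Lx8 peak in intron 2 of Maml3, a Notch coactivator gene (chr3:51513137-51513346), with 6.06, 11.1 and 12.7 tags against 56.9, 47.1 and 59.4 (log2 -2.45, SE 0.399, adjusted p = 3.08e-07), and the peaks near Adarb1, Rxrg, Plcl1 and Fam19a1 described above. A B4A peak near Csmd3 (log2 -2.57) was called in 10 of 13 alternative analyses, and the PB1 peak in Naa35 (log2 -3.54, adjusted p = 0.00474) in 4 of 13.

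Peaks called in untreated mice were then read in the LPS mice, which are other animals and other libraries. Of the 244 peaks higher in CD45.1, 112 had a matched peak that could be tested after LPS (reciprocal overlap of at least 50%), and in all 112 the log2 fold change kept its sign. Of them 43 were called again, and the median went from 3.20 to 2.11. Of the 103 peaks higher in CD45.2, 38 could be tested, all 38 kept their sign and 24 were called, with medians of -2.78 and -2.86. In the other direction 48 of the 81 LPS calls higher in CD45.1 could be tested in untreated mice, and 43 were called there. Of the 39 higher in CD45.2, 29 could be tested and 24 were called. Over all matched peaks, 464 of 1378 untreated and of 527 LPS calls higher in CD45.1 were called in both tables. Matched repeats gave 43 of 122 and of 48, near those shares. For calls higher in CD45.2 all matched peaks gave 370 of 790 and of 416, and repeats 24 of 39 and of 29. Peaks without a match went unread, so these counts cover only peaks found in both tables.

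Tags were next summed over all peaks of the same repeat name, which lends weight to names with many weak copies. Of 92 LINE and SINE names with at least 5 peaks in untreated mice, 29 were higher in CD45.1 and 6 higher in CD45.2 (DESeq2 adjusted p under 0.05), where 20.9% and 8.91% of all 258 repeat names passed. Among the 29 were 20 names of L1, of which 17 were L1M names. The sums hold the same peaks as the calls above, so they are no separate evidence for the old L1 class. GC-bin size factors were not among the 8 alternative analyses of the sums. The L1_Mur3 sum, over 37 peaks, was 1125, 1275 and 1233 normalized tags in CD45.1 and 743, 802 and 797 in CD45.2 (log2 0.63, SE 0.0865, adjusted p = 2.44e-11). In 30 of its 37 peaks the CD45.1 mean was the higher, and 12 were called. L1M5 (log2 0.68), L1MB8 (0.56), L1MB2 (0.54), L1MB3 (0.48) and L1MB7 (0.41) followed, each with an SE of at most 0.113 and passing in all 8 alternative analyses.

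The names higher in CD45.2 were all L1, and 5 of the 6 belonged to the rodent lineage. The L1Md_F2 sum, over 34 peaks of a young mouse L1, was 299, 381 and 371 in CD45.1 and 610, 668 and 723 in CD45.2 (log2 -0.94, SE 0.123, adjusted p = 3.01e-12). The mean was higher in CD45.2 at 30 of the 34 peaks, 7 of which were called, and the log2 ratio was -0.86 without the peak of largest difference. L1VL4 was lower in CD45.1 at all 9 of its peaks, with a sum of 175 ± 27.4 against 259 ± 23.7 (SD, n = 3, log2 -0.55, adjusted p = 0.00663). L1_Mus3 (-0.37), L1M4c (-0.44), L1Md_F3 (-0.63) and L1_Mus4 (-0.45) also passed, in 6, 5, 4 and 3 of 8 alternative analyses. With the mouse as a block 20 names were higher in CD45.1 and 3 in CD45.2. The common B2 names gave no such difference, with log2 values of -0.04 for B3 (SE 0.0517, adjusted p = 0.532), -0.04 for B3A (SE 0.0521, adjusted p = 0.580) and 0.08 for B2_Mm2 (SE 0.0634, adjusted p = 0.343). Reads of young copies may have been shared among near-identical elements, so the sums over L1Md and L1_Mus names are uncertain.

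**Figure D2:**
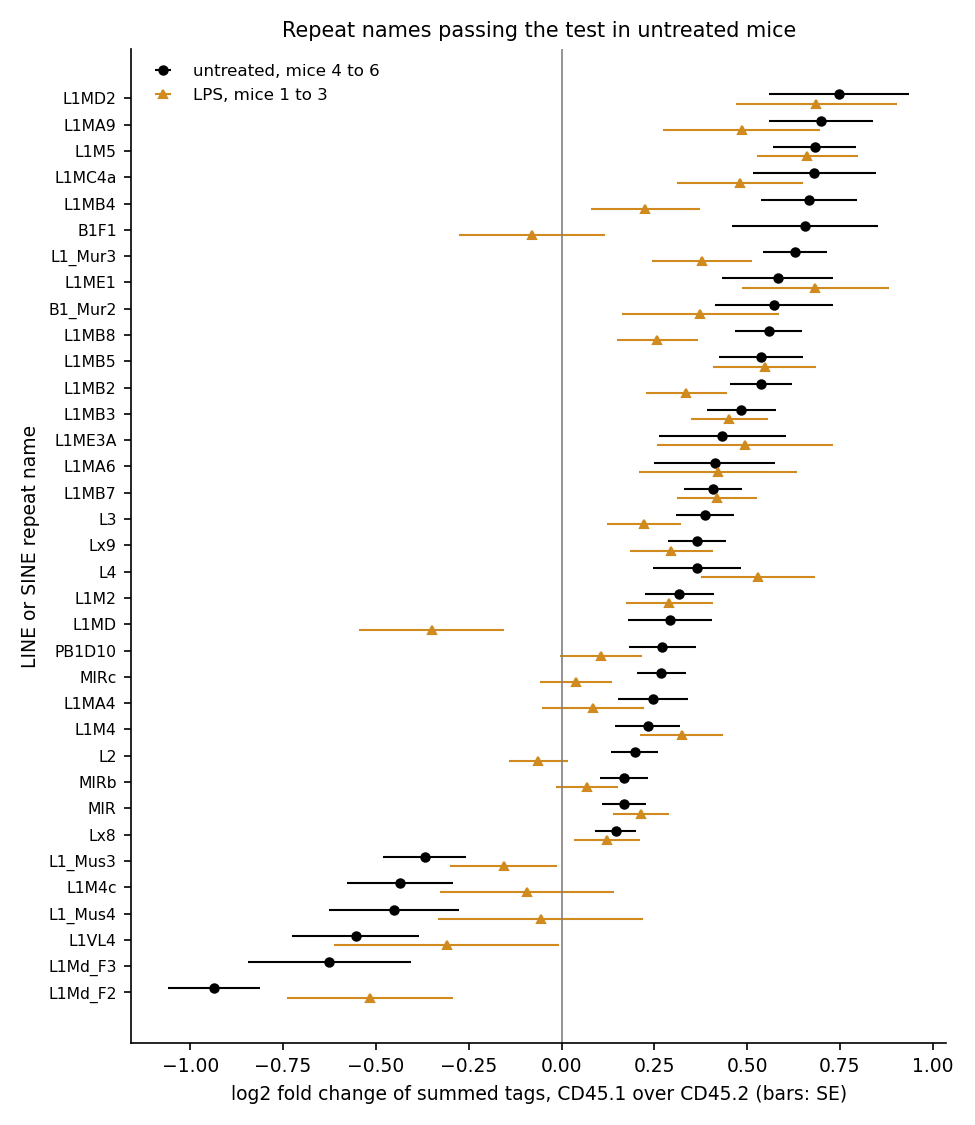
Log2 fold change (CD45.1 over CD45.2) of tags summed by repeat name, with SE bars, for the 35 LINE and SINE names that passed in untreated mice (black circles) and for the same names in LPS mice (orange triangles), where L1Md_F3 had too few peaks. Of the L1M names 17 lie to the right of 0 and 1, L1M4c, to the left at -0.44, L1Md_F2 lies farthest to the left at -0.94, and after LPS 26 of the 29 names on the right keep their sign.

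After LPS 12 of 88 names were higher in CD45.1 and 1 higher in CD45.2, where 8.54% and 3.25% of all 246 names passed. All 12 had passed in untreated mice as well. L1M5 (388 ± 17.5 against 245 ± 6.99, SD, n = 3, log2 0.66, adjusted p = 3.18e-05), L1MB3 (log2 0.45), L1MB5 (0.55) and L1MB7 (0.42) passed in all 8 alternative analyses, L4 (0.53) in 6 and L1ME1 (0.68) in 7. After LPS the L1Md_F2 sum averaged 110 ± 28.0 for CD45.1 against 158 ± 18.8 for CD45.2, and its log2 value of -0.52 did not pass (adjusted p = 0.113). B1_Mus1, a young B1, was the single name higher in CD45.2 (log2 -1.29, adjusted p = 0.0181), from sums of only 20.0 ± 7.97 and 50.2 ± 3.11 tags, and it passed in 1 of 8 alternative analyses. With the mouse as a block 6 names passed, each higher in CD45.1, whereas edgeR gave 19 and 1. Without the CD45.1 or the CD45.2 library of mouse 2 the names higher in CD45.1 numbered 5. In untreated mice they numbered 18 without the CD45.1 or the CD45.2 library of mouse 5, and the names higher in CD45.2 numbered 3 without the CD45.1 library of mouse 6 or the CD45.2 library of mouse 5.

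The share of a library's peak tags that fell in each repeat set gave a reading over all peaks, called or not. LINE peaks took 1.67, 1.82 and 1.77% of the peak tags in CD45.1 of untreated mice 4, 5 and 6, and 1.49, 1.62 and 1.62% in the CD45.2 cells of the same mice. After LPS they took 1.70, 1.73 and 1.83% against 1.64, 1.60 and 1.66% in mice 1, 2 and 3. In each of the 6 mice the graft cells had the larger share, by 0.148 ± 0.0472 percentage points (SD, n = 6, exact paired permutation test, two-sided, p = 0.031, adjusted over 8 sets 0.0833), and this p is the smallest that 6 pairs allow. L1 alone differed by 0.129 ± 0.0457 points and MIR by 0.0260 ± 0.0162 points, each in 6 of 6 mice with the same exact and adjusted p. None of these passed the adjustment. SINE peaks as a whole differed by 0.0351 ± 0.0561 points in 4 of 6 mice (exact p = 0.219). B2 peaks differed by -0.00151 ± 0.0377 points with 3 mice on either side (exact p = 0.844), and this sign turned under other settings. B2 peaks took 0.491 to 0.551% of the peak tags in untreated and 0.338 to 0.431% in LPS libraries, but the tables hold different B2 peaks and treatment cannot be told apart from table.

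**Figure D3:**
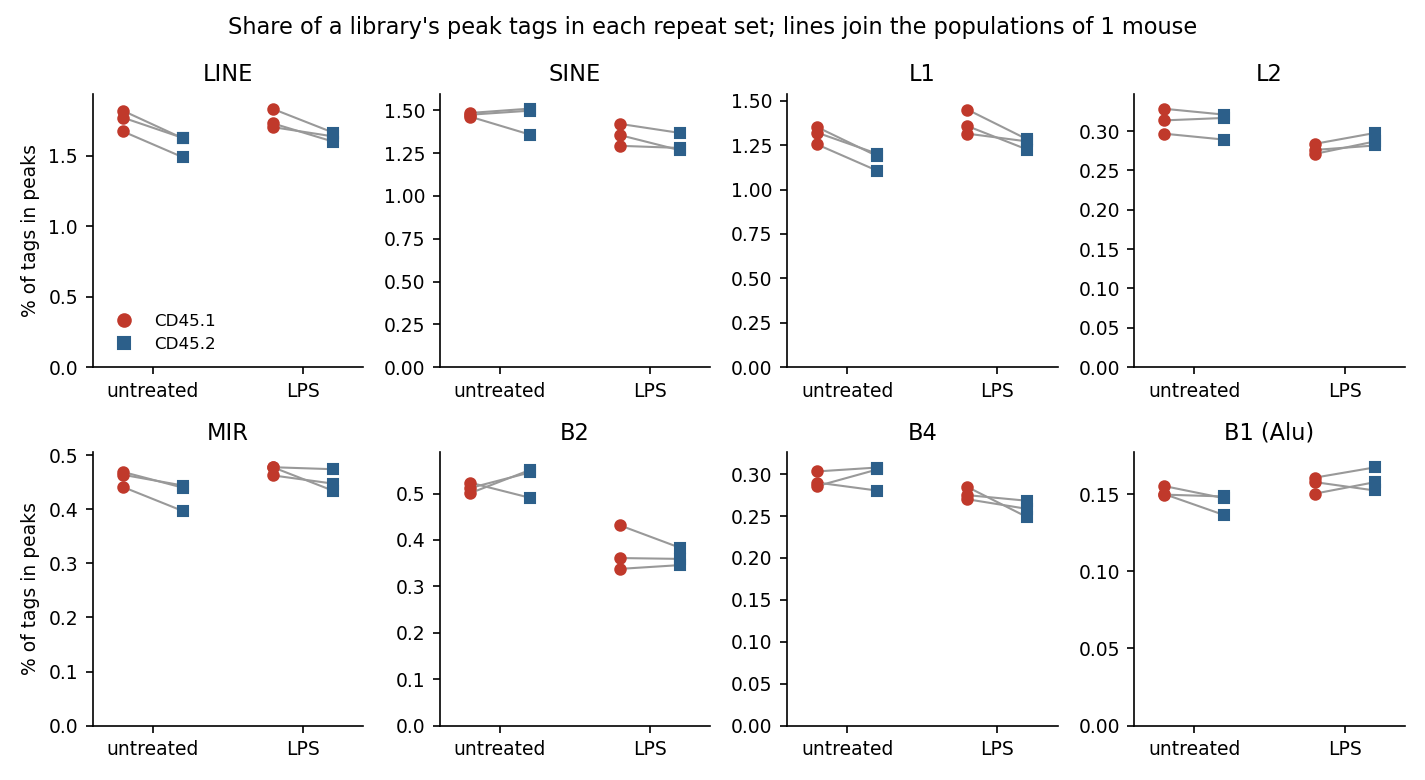
Share of each library's peak tags, in percent, that fell in LINE, SINE and 6 repeat families, for CD45.1 (red circles) and CD45.2 (blue squares), with lines joining the populations of the same mouse. In the LINE, L1 and MIR panels the CD45.1 point lies above the CD45.2 point in all 6 mice, whereas the lines of the B2 panel run in both directions.

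The families differed in the motifs found in the 200 bases around the peak centre. This window is wider than most repeat peaks (median widths 123 bp untreated and 151 bp after LPS). A match can therefore lie outside the peak and outside the repeat. CTCF matches were found in 59.2% of untreated B2 peaks, with 84.5% for B2_Mm2, 58.7% for B3 and 41.6% for B3A, against 2.39% of L1 peaks and 8.18% of all peaks outside LINE and SINE repeats. B2 peaks were in turn poor in PU.1 matches, the motif of a factor that macrophages need, with 2.36%, whereas L2 had 20.1%, MIR 14.2%, B4 13.2% and L1 12.8%, against 9.36% outside LINE and SINE repeats. PU.1 matches were found in 23.3% of LTR peaks and 11.2% of distal peaks outside repeats. CEBP matches were most frequent in MIR (16.9%) and L1 (16.6%) among the 6 families. They were found in 9.59% of all peaks outside LINE and SINE repeats and 11.6% of distal peaks outside repeats. Of 376 B2 peaks tested that held a CTCF match, 1 was called higher in CD45.1 and 3 higher in CD45.2, and of 258 without a match 9 and 6. Distal peaks outside repeats with a CTCF match were also rarely called, so this was not particular to B2. Among 3581 such peaks, 20 were called higher in CD45.1 and 31 higher in CD45.2. The B2_Mm2 peak shown last, chosen after its values were seen as the strongest B2 peak with a CTCF match, lies in an intron of Dicer1, which encodes the nuclease that makes microRNAs. It had 98.9, 97.7 and 89.8 tags in CD45.1 and 72.9, 73.9 and 77.5 in CD45.2 and was not called (log2 0.35, SE 0.207, adjusted p = 0.326). A match describes letters in a window and does not show that a factor was bound.

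**Figure D4:**
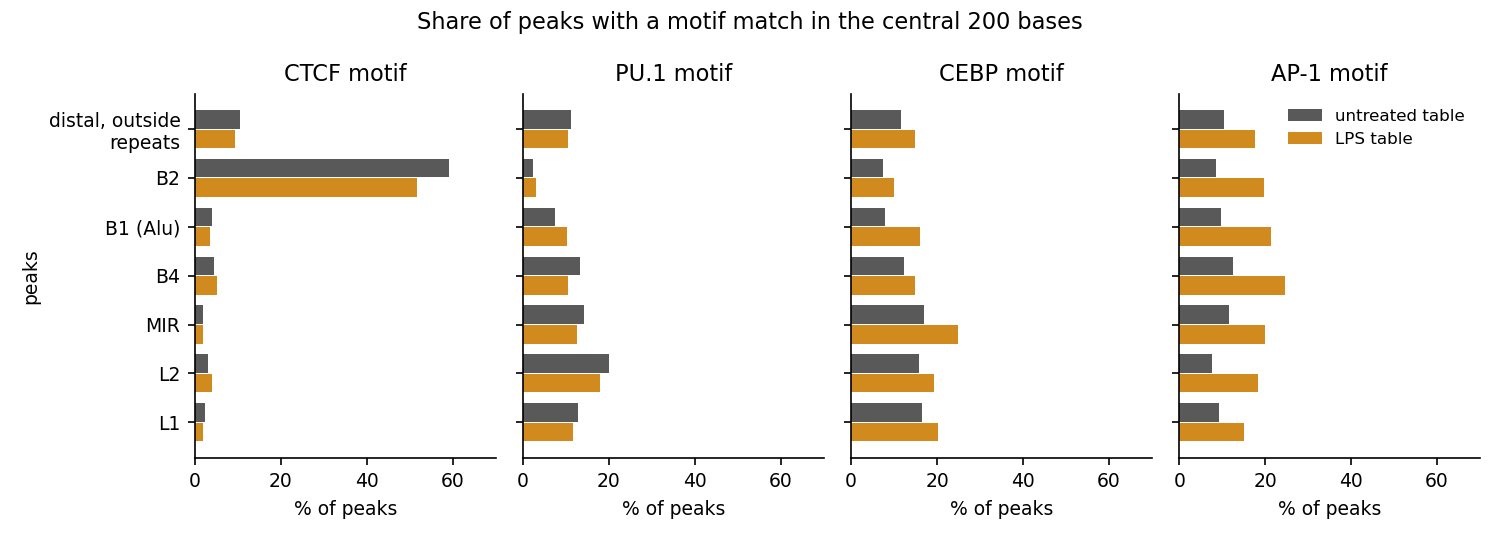
Percent of peaks with a CTCF, PU.1, CEBP or AP-1 motif match in the 200 bases around the peak centre, for 6 repeat families and for distal peaks outside repeats, in the untreated (gray) and LPS (orange) tables. The B2 bar stands out for CTCF at 59.2% of untreated peaks, the L2 bar is the longest for PU.1 at 20.1%, and AP-1 bars are longer in the LPS table for every set.

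Called peaks also differed in motif content from the rest. Of the repeat peaks called higher in CD45.1 in untreated mice 1.23% had a CTCF, 18.4% a CEBP and 13.5% an AP-1 match, against 15.8%, 13.7% and 9.80% of those not called. Those called higher in CD45.2 had 4.85%, 10.7% and 4.85%. Within L1, CEBP matches were found in 20.8% of peaks called higher in CD45.1, 14.5% of those higher in CD45.2 and 16.2% of those not called. Distal peaks outside repeats called higher in CD45.1 gave 1.22% for CTCF, 21.9% for CEBP and 18.2% for AP-1. The CTCF share was near that of the called repeats, and the CEBP and AP-1 shares were higher. These are shares without a test, and the motif matches go with the base composition given above.

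The response of the repeats to LPS was read at 1586 matched peaks that were LINE or SINE in both tables. In CD45.1 cells 128 (8.07%) were higher and 103 (6.49%) lower after LPS (DESeq2 adjusted p under 0.05 and more than 2-fold), where 6.78% and 4.93% of all 39235 matched peaks tested were. In CD45.2 cells 172 (10.8%) were higher and 76 (4.79%) lower, where 7.69% and 3.69% of all were. The populations shared 80 peaks that were higher and 42 that were lower. By family, L1 had 63 higher and 46 lower in CD45.1 and 95 and 34 in CD45.2, of 684. MIR had 19 and 12, and 31 and 16, of 185, and B4 17 and 16, and 11 and 10, of 152. B2 moved least of the larger families, with 14 and 9, and 10 and 2, of 300. The peaks of each treatment had been called and counted separately, and the matched repeat peaks had a median width of 136 bp in the untreated and 161 bp in the LPS table, so treatment cannot be told apart from table. With both tables scaled to total tags CD45.1 had 82 higher and 39 lower peaks, and CD45.2 103 and 51 around a median of all peaks that moved to -0.15. Among pairs of similar width the counts were 47 and 38, and 60 and 36, of 821. Peaks lower in CD45.1 numbered 61, 58 and 51 without the CD45.1 library of mouse 5, 2 or 3, and peaks lower in CD45.2 numbered 41, 48, 48 and 48 without the CD45.2 library of mouse 5, 6, 2 or 3.

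AP-1 matches went with the rise. They were found in 30.5% of the repeat peaks higher after LPS in CD45.1 and 30.8% of those higher in CD45.2, against 4.85% and 3.95% of those lower and 9.93% of peaks that passed in neither population. CEBP matches were found in 23.4% and 29.7% of the peaks that were higher, against 15.7%. A MIR peak 37209 bp upstream of the lipid transfer gene Osbpl8 (chr10:110564578-110564720) was among the 3 with the smallest adjusted p in either population. On the common scale of all 12 libraries it had 35.8, 33.4 and 55.2 tags in untreated and 162, 208 and 215 in LPS CD45.1 libraries (log2 2.24, SE 0.235, adjusted p = 1.33e-18). In CD45.2 it had 9.79, 6.32 and 11.3 untreated and 166, 109 and 94.1 after LPS (log2 3.74, SE 0.315, adjusted p = 1.90e-28). A MIRb peak in an intron of 1110007C09Rik, near Card19, was higher by 1.66 and 1.78 in CD45.1 and CD45.2 on the log2 scale. An Lx3_Mus peak near the paraoxonase gene Pon2 was higher by 2.43 in CD45.1 and 1.22 in CD45.2, and a MIR peak in an intron of Pstpip2, an adaptor gene that restrains inflammation, by 3.77 in CD45.2 and 1.95 in CD45.1. Each of these 4 was past the test in both populations.

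Lower after LPS were, among others, 3 MIR peaks in both populations. The MIR peak 25652 bp from Zfp648 had log2 values of -1.68 in CD45.1 and -1.50 in CD45.2, the MIRb peak near Mllt3, a gene of the super elongation complex, -1.79 and -1.61, and the MIRb peak in intron 2 of Bend6 -2.38 and -1.41. At Zfp648 the tags went from 94.3, 116 and 70.2 to 37.5, 23.3 and 24.5 in CD45.1 and from 99.5, 96.7 and 103 to 37.8, 43.6 and 27.6 in CD45.2. A HAL1 peak, a LINE of the L1 family, in intron 21 of the kinase gene Nek10 had 23.9, 30.6 and 30.5 tags in untreated and 0, 3.79 and 3.94 in LPS CD45.2 libraries (log2 -3.28, SE 0.625, adjusted p = 5.69e-06) and -1.39 in CD45.1. Of the strongest matched peaks of 6 families, 5 did not pass the test in either population. The B3 peak near Adgrl2 in CD45.2 (log2 0.90, DESeq2 adjusted p = 0.0115) missed only the 2-fold limit. So did the L2b peak near Sirpa in CD45.1 (log2 -0.80, adjusted p = 0.00277). The L1M3 peak near Tubgcp5 averaged 127 ± 18.2, 146 ± 29.8, 144 ± 14 and 144 ± 48.8 tags in CD45.1 untreated, CD45.2 untreated, CD45.1 LPS and CD45.2 LPS (SD, n = 3). The RSINE1 peak in intron 1 of Plek, a signalling gene of blood cells, averaged 113 ± 25.4, 125 ± 3.72, 134 ± 38.2 and 145 ± 28.5. The MIR peak in intron 2 of Oxr1 was past the test in both populations, with 90.7 ± 5.25 and 69.8 ± 15.8 untreated and 261 ± 66.8 and 168 ± 45.7 after LPS in CD45.1 and CD45.2. The B3 peak near Adgrl2 averaged 92.7 ± 3.99 and 43.1 ± 8.84 untreated and 145 ± 30.5 and 86.5 ± 50.2 after LPS, and the PB1D10 peak near Fnip2 96.7 ± 11.6 and 50.1 ± 3.00 untreated and 93.3 ± 10.3 and 62.7 ± 11.5.

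The test of whether the populations responded differently passed at 8 of the 1586 repeat pairs. CD45.1 rose more at 1 and CD45.2 rose more at 7, where 0.0178% and 0.227% of all matched peaks passed, and 110 pairs had an unadjusted p under 0.05. At the L1MB4 peak near Apoc4-apoc2 the CD45.1 libraries had 70.6, 75.3 and 83.1 tags untreated and 66.2, 63.2 and 25.9 after LPS, whereas CD45.2 went from 7.62, 4.22 and 4.12 to 18.9, 28.4 and 23.2 (interaction log2 -2.84, SE 0.517, adjusted p = 0.000139). The CD45.2 libraries were thus higher in LPS than in untreated mice, at a peak that was more open in CD45.1 cells of untreated mice. These are different mice, and within a population treatment cannot be told apart from table. The same pattern, with CD45.1 above CD45.2 in untreated mice and a rise in CD45.2, was seen at an ID_B1 peak of the B4 family 6893 bp upstream of C3ar1, the receptor gene of complement fragment C3a (chr6:122812969-122813168). Its tags averaged 84.3 ± 12.6 and 71.4 ± 8.38 in CD45.1 and 34.6 ± 8.19 and 93.3 ± 23 in CD45.2, untreated and after LPS (interaction log2 -1.66, SE 0.331, adjusted p = 0.000552).

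An L1MB3 peak near the lipase gene Lipg (-2.02) and an L1MEb peak near Psen2, a gene of the gamma-secretase complex (-1.94), followed the same pattern, as did an Lx8 peak near Cd5l, a secreted macrophage protein gene (-2.01), and the MIR peak near Osbpl8 (-1.51). The L1MEb peak averaged 47.0 ± 11 and 47.2 ± 10.9 tags in CD45.1 and 12.8 ± 3.59 and 50.0 ± 3.55 in CD45.2, untreated and after LPS. At an L2b peak near Sirpa, the gene of an inhibitory receptor of phagocytes, the pattern was another. It averaged 113 ± 10.5 and 63.6 ± 22.7 tags in CD45.1 and 98.8 ± 5.10 and 136 ± 20.7 in CD45.2 (interaction log2 -1.25, SE 0.293, adjusted p = 0.00870). The single peak where CD45.1 rose more was an Lx8 peak in intron 3 of Asb4 (2.13, SE 0.564, adjusted p = 0.0466). With the mouse as a block 4 pairs passed, all with CD45.2 rising more, and 3 and 4 of the pairs with CD45.2 rising more passed without the CD45.2 library of untreated mouse 5 or 6, and 4 without the CD45.1 library of LPS mouse 3. Scaled to total tags 1 pair passed. A factor that the separate counting adds to a pair in both populations cancels in this test.

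**Figure D5:**
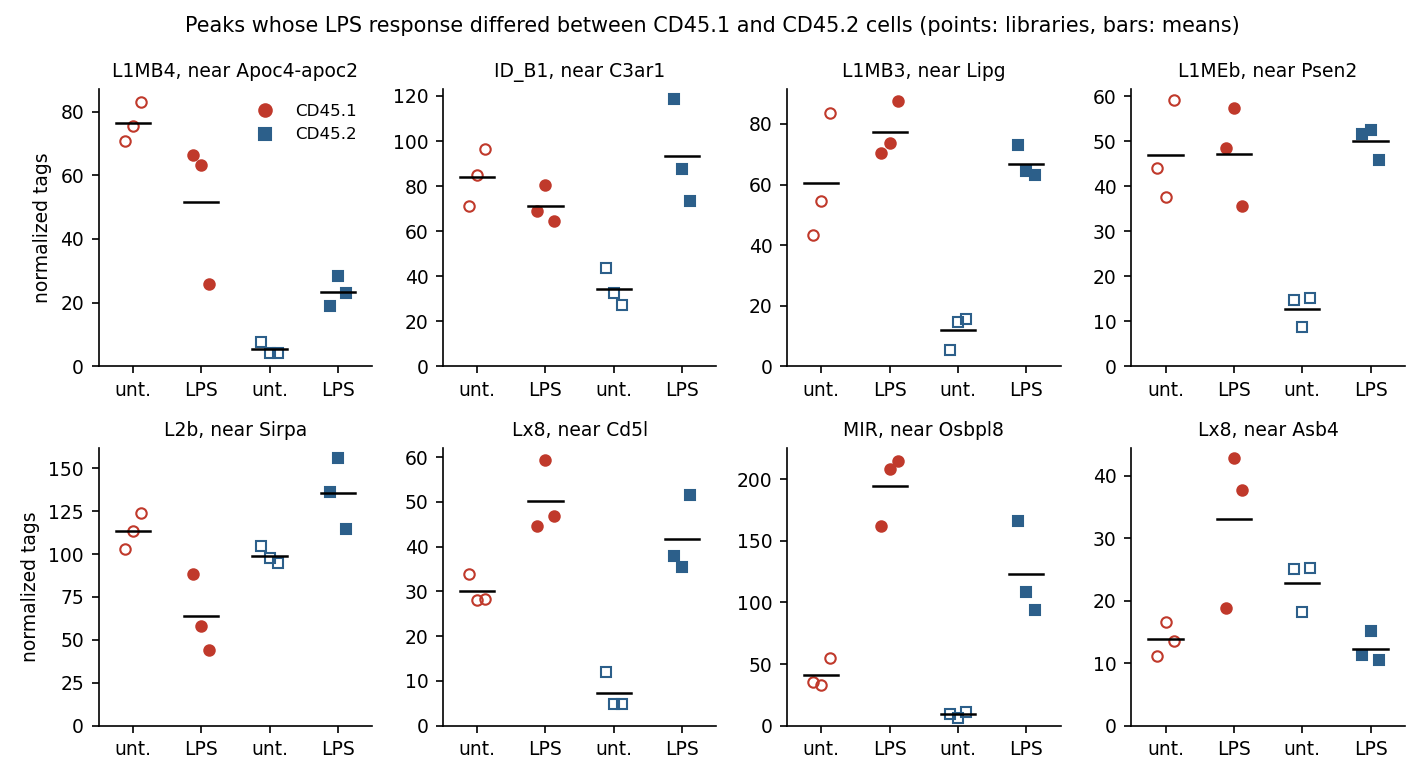
Normalized tags, on the common scale of the 12 libraries, at the 8 repeat peaks whose change with LPS differed between populations, for CD45.1 (red circles) and CD45.2 (blue squares), untreated (open) and LPS (filled), with bars at the means of 3. At the L1MB4 peak the CD45.2 libraries go from 4.12 to 7.62 up to 18.9 to 28.4, and the Lx8 peak near Asb4 is the single one where CD45.1 goes up more.

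Repeat peaks were last read by the gene whose start site was nearest, in lists of genes chosen with earlier results of these data known, so their directions are no independent evidence. Of 8 untreated repeat peaks next to microglia identity genes 3 were called, each higher in CD45.2, and of all 221 peaks tested next to these genes 59 were called higher in CD45.2 and 7 higher in CD45.1. The 3 were the MIRb peak at Rxrg, a MIR peak 53700 bp upstream of the repressor gene Klf12 (log2 -3.21) and an L2 peak 352623 bp upstream of Sall1, a transcription factor gene that maintains microglia. The Sall1 peak had 7.46, 21.4 and 2.18 tags in CD45.1 and 62.3, 104 and 90.5 in CD45.2 (log2 -3.02, SE 0.788, adjusted p = 0.00182). Of 11 next to genes of graft-derived macrophages 4 were called, each higher in CD45.1, namely the MIR and a MIR3 peak of Trps1 (log2 2.55 and 3.69), the RSINE1 peak of Clec12a and an L1MA4 peak of Ms4a7 (2.42). At the Clec12a peak the CD45.2 libraries held 2 tags in all, and the ratio of 36.6 has a 95% counting interval of 9.76 to 308. Of all 137 peaks tested next to these genes 43 were called, each higher in CD45.1. Whether repeat peaks differ from the other peaks of these genes was not tested. Of 12 next to LPS response genes 3 were called, each higher in CD45.1, an L2 and an Lx8 peak of the proton-sensing receptor gene Gpr65 and an L1MC3 peak of the bacterial lipoprotein receptor gene Tlr2 (log2 3.81, SE 1.02). The L2 peak of Gpr65 had a ratio of 51.8 with a 95% counting interval of 13.98 to 434, from tags rounded to whole numbers, and the Lx8 peak a log2 value of 4.51 (SE 0.755). Over all 200 peaks tested next to LPS response genes 19 were called higher in CD45.1 and 6 higher in CD45.2.

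Genes that control repeats had 72 tested peaks of any kind in untreated mice, with 2 called higher in CD45.1 and 0 higher in CD45.2. Of the 4 that were repeat peaks 1 was called. This was an L1MD peak 15961 bp upstream of Fam208a, which encodes a subunit of the HUSH complex that silences L1 (chr14:28225986-28226159). It had 65.3, 79.4 and 73.5 tags in CD45.1 and 0, 1.55 and 0.812 in CD45.2 (adjusted p = 2.18e-10), which is a ratio of 75.8 with a 95% counting interval of 25.6 to 371, and all CD45.1 libraries were above all CD45.2 libraries. After LPS 2 of 7 microglia identity peaks were called higher in CD45.2 and 2 of 16 graft-derived ones higher in CD45.1, and the 2 calls among 9 LPS response peaks went opposite ways. All peaks next to these genes gave 1 call higher in CD45.1 and 26 higher in CD45.2 of 168 for microglia identity, 20 of 131, each higher in CD45.1, for the graft-derived list and 3 and 7 of 171 for LPS response. A call not made in untreated mice was an L1MEa peak 19791 bp upstream of the chemokine gene Ccl5, with 1.21, 0 and 0.944 tags in CD45.1 and 9.63, 14.8 and 18.7 in CD45.2 (adjusted p = 0.00324), a CD45.2 over CD45.1 ratio of 24.3 with a 95% counting interval of 6.41 to 206. DNA around Ptprc can differ in sequence between the CD45.1 and CD45.2 strains. Within 25 Mb on either side of the gene 49 repeat peaks were tested in untreated mice, with 3 called higher in CD45.1 and 1 in CD45.2, and the 3064 outside gave 241 and 102. After LPS 45 were tested within the window and 2344 outside, and all 120 calls lay outside.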

How the data were processed

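ATAC-seq had been performed on sorted CD45.1 and CD45.2 cells of 6 mice. The submitters' processing notes name Bowtie2, Picard 1.108 and HOMER, and the tables were annotated by HOMER on mm9. The deposited tables hold estimated counts, tags per merged peak and library in steps of 0.5, not normalized, and peaks had been merged per treatment. The deposited peak list of each library, called by HOMER per the file headers, holds a score, the tags at each peak without scaling for depth, and was used only to count the lists in which a peak was found. How reads mapping to several repeat copies were treated is not given in the sources used here. Gene, intron and GC values came from the NCBIM37 reference.

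Estimated counts were rounded and tested with DESeq2 1.42.0 (R 4.3.3) in each table, 3 libraries against 3, over all peaks with more than 10 tags in at least 1 library. A peak was called at an adjusted p under 0.01 and a more than 4-fold difference. Peaks of the tables were matched at a reciprocal overlap of at least 50%, and 39235 pairs were fitted over 12 libraries for the LPS effect (adjusted p under 0.05 and more than 2-fold) and its interaction with the population (adjusted p under 0.05). Tags were summed by repeat name for names with at least 5 peaks. Shares were compared with an exact paired permutation test over mice. Both populations came from the same brain, so the mouse, read from the replicate number in the sample titles, pairs the libraries. Deviations from group means correlated at only 0.0807 to 0.0873 in untreated and -0.0665 to 0.149 in LPS pairs. In LPS mice 1 and 2 the highest correlation with another mouse was larger, at 0.117 against -0.0665 and 0.0827 against 0.0608. In the other mice the value within the mouse was the larger.

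The alternatives were edgeR 4.0.16, TMM factors, total tags as size factors, no filter, a mean of at least 20 tags, peaks in at least 2 lists, the mouse as a block with and without GC-bin size factors, stricter matching, and leaving out each library. The fits across peaks were tested on simulated data. The named peaks were the 5 calls of smallest adjusted p per table and direction, the best call of each of 6 families, the 5 pairs of smallest adjusted p for the interaction, 3 pairs per population and direction for LPS, the strongest pair per family and up to 6 names per direction, with called peaks of the gene lists. The Dicer1 peak and the interaction pairs near Cd5l, Osbpl8 and Asb4 were added after their values were seen, the Osbpl8 pair being also among the LPS pairs. The repeats and lists were chosen with earlier results of these data known. Intervals cover counting error only, and p-values over 3 mice a group measure the spread between these mice.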

Additional observations from a re-analysis of the deposited data

Results flagged for a closer look

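At 8 matched repeat peaks the effect of LPS differed between CD45.1 and CD45.2 cells by the test of the difference itself (DESeq2 interaction, adjusted p under 0.05). The values are the log2 change with LPS in CD45.1 minus that in CD45.2. CD45.2 rose more at 7 of them, with -2.836 at the L1MB4 peak near Apoc4-apoc2 (passing in 18 of 18 alternative analyses), -2.019 at the L1MB3 peak near Lipg (15 of 16) and -2.007 at the Lx8 peak near Cd5l (8 of 16). The ID_B1 peak near C3ar1 had -1.663 (17 of 18) and the L1MEb peak near Psen2 -1.941 (14 of 16). At the L2b peak near Sirpa the value was -1.254 (8 of 16), and at the MIR peak near Osbpl8, where both populations rose, it was -1.506 (4 of 16). The Lx8 peak in Asb4 went the other way, with 2.128 (5 of 18).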

How the results depend on the processing

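The 32 named peaks, the 8 pairs past the interaction test and the 48 repeat names past theirs kept their direction in the alternatives run, whereas 5 of the 12 other named pairs and 24 of the 132 other repeat names changed sign in at least 1, and the counts of calls moved. Calls in untreated mice (244 and 103) were 186 and 69 with the replicate block. They were 149 and 73 with block and GC-bin size factors, and 62 and 21 with a mean of at least 20 tags. LPS calls (81 and 39) were 50 and 18 with the block, 28 and 24 with block and GC bins, and 7 and 5 with a mean of at least 20 tags. With a library left out the counts ranged from 147 to 215 and 59 to 87 in untreated mice and from 23 to 56 and 10 to 22 after LPS. Repeat names in untreated mice higher in CD45.2 numbered 10 with edgeR and 3 with the block, and names after LPS higher in CD45.1 numbered 19 and 6, with 0 higher in CD45.2 under the block. Leaving out a library gave 18 to 30 and 3 to 7 names in untreated mice and 5 to 12 and 0 to 1 after LPS. Interaction pairs with CD45.1 rising more (1) numbered 0 with total tags, with an overlap of 80% and with the block. Those with CD45.2 rising more (7) numbered 1 with total tags, 2 with an overlap of 80%, 2 among pairs of similar width and 4 with the block, and without single libraries 0 to 2 and 3 to 9 passed. Peaks higher after LPS in CD45.1 numbered 82 with total tags, 79 with a mean of at least 20 tags, 37 with an overlap of 80% and 47 with similar widths, and lower ones 39, 30 and 38 for total tags, overlap and widths. In CD45.2 the higher peaks numbered 103, 107, 47 and 60 in the same order, and lower ones 26 for overlap and 36 for widths. Leaving out a library gave 93 to 140 and 51 to 104 in CD45.1 and 130 to 176 and 41 to 77 in CD45.2. The stricter matching leaves fewer pairs to test, and the cause of the other moves was not tested. The LINE share difference was 0.148 with an adjusted exact p of 0.02 without pairing by mouse (no replicate block) and 0.138 to 0.164 with a mouse left out. Over all 10 alternative settings it ranged from 0.0912 to 0.241, and its highest adjusted exact p was 0.708. The L1 difference ranged from 0.0758 to 0.213 and the MIR difference from 0.0197 to 0.0405, each with the same highest adjusted p. The B2 share difference turned sign to 0.00961 with total tags, 0.00224 with peaks in at least 2 lists, and ranged from -0.0115 to 0.00821 with a mouse left out (0.00821 and 0.00491 without mouse 5 or 6), and the L2 difference to 0.00585 with total tags. The LPS libraries are shallow, with a median of 10.4 tags at a repeat peak, and the size of difference detectable at this depth was not measured.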
